A study of Setaria italica with 24 samples.

Results

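The root transcriptomes of 2 foxtail millet (Setaria italica) lines from Taiwan, the landrace Hanevalval and the cultivar TT8, were compared in plants that received no fungal inoculum. The comparison used 4 mock-treated libraries per line and the genes present in the value tables of both lines with a mean signal of 5 or more over these 8 libraries. These were 24027 of the 26785 genes found in any table of the series. Signal is the number of reads on a gene divided by the size factor of its library, so that values of different libraries can be set side by side.

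Arbuscular mycorrhizal (AM) fungi colonize the root cortex and deliver phosphate and nitrogen to the host in exchange for lipids and sugars. The host perceives the fungus through the common symbiosis signalling pathway, in which an ion channel, a receptor-like kinase and a calcium- and calmodulin-dependent kinase act before GRAS transcription factors such as RAM1. Arbuscule-containing cells then switch on a phosphate transporter of the PHT1 family, lipid synthesis genes and the half-ABC transporters STR and STR2.

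All plants were grown from surface-sterilized seed in sterile sand and peat and harvested 6 weeks after the mock treatment or the inoculation with AM fungus, and RNA was made from part of each root. The series holds 24 libraries, 4 for each combination of Hanevalval, TT8 or a further line, the Indian landrace that the study calls ISE36 and the labels ICE36, with mock or AMF treatment. The labels name no introduced allele for any group, and nothing in them says whether a replicate is a single plant, so the p-values measure the spread between these libraries. The 8 mock libraries carried 15013564 to 19056890 reads on listed genes in Hanevalval and 16543884 to 18385908 in TT8.

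Of the 8 mock libraries, 3 resembled the AMF libraries of their line more than the other mock libraries did, and the cause was not tested. Across the 24027 genes, Hanevalval mock replicates 1 and 2 were alike, with a Pearson's r of log2(signal + 1) of 0.975, and replicates 3 and 4 resembled each other with an r of 0.949. Between these pairs the r fell to between 0.873 and 0.898, and 7405 to 8021 genes lay more than 2-fold apart. The library labelled Hanevalval mock replicate 3 was nearer to the 4 AMF libraries of its own line, with an r of 0.950 to 0.971, than to mock replicates 1 and 2, and replicate 4 showed the same order with an r of 0.916 to 0.937 to the AMF libraries. In TT8, mock replicates 1, 2 and 3 had an r of 0.962 to 0.976 with one another. TT8 mock replicate 4 had an r of 0.917 to 0.948 with these and of 0.943 to 0.968 with the AMF libraries of TT8. Hanevalval mock replicates 1 and 2 were in turn nearer to the TT8 mock libraries, with an r of 0.935 to 0.956, than to mock replicates 3 and 4 of their own line. These values are across genes of libraries aligned to a single reference, and the genes are not independent replicates.

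**Figure D1:**
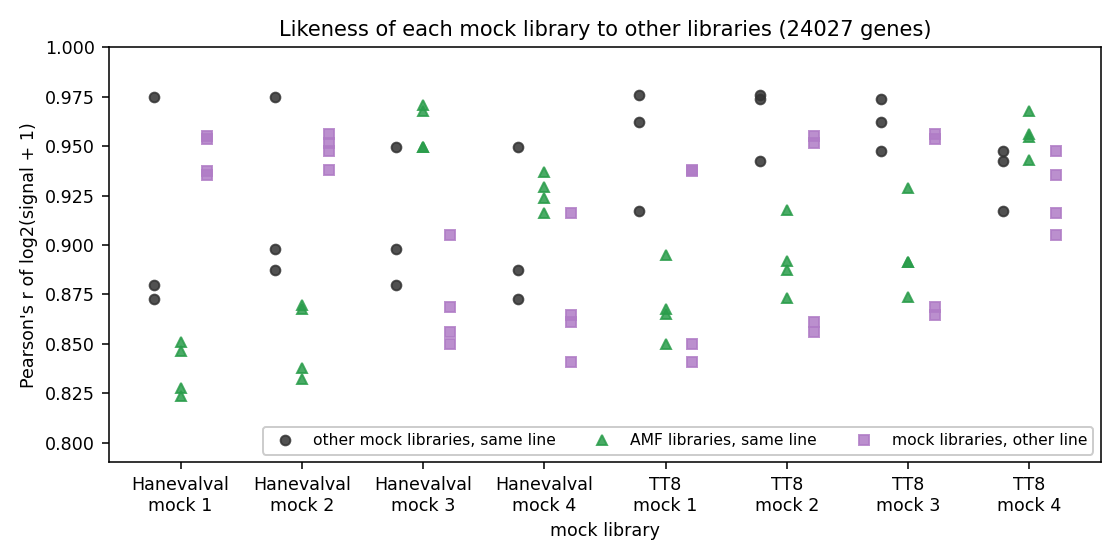
Pearson's r of log2(signal + 1) over 24027 genes between each mock library (x axis) and the other mock libraries of its line (circles), the AMF libraries of its line (triangles) and the mock libraries of the other line (squares). Hanevalval mock 3 and 4 and TT8 mock 4 are the libraries whose triangles lie above their lowest circles, and the r axis starts at 0.79.

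Transcripts of several genes that mark AM colonization, but not of all, were raised in the same 3 libraries. Over a list of 11 AM marker genes the summed signal was 104.9 and 103.5 in Hanevalval mock replicates 1 and 2, 515.8 in replicate 3 and 310.6 in replicate 4. It was 88.5, 82.0 and 75.9 in TT8 mock replicates 1, 2 and 3 and 422.9 in replicate 4. The mock libraries of ISE36 ranged from 102.0 to 154.7, and the AMF libraries from 981.1 to 8515 in Hanevalval and from 13559 to 23056 in TT8. The 11 genes, chosen from the study's conserved symbiosis genes, were SiPHT1;9, STR, STR2, RAM1, RAM2, FatM, SETIT_032400mg, SETIT_002402mg, SETIT_011928mg, SETIT_023913mg and SETIT_019796mg. Of these, the class III chitinase gene SETIT_002402mg also differed between the lines in replicates 1 and 2. It was at 26.2 and 17.1 there in Hanevalval and at 2.79 and 4.88 in TT8. The subtilisin inhibitor gene SETIT_019796mg had a signal of 108.2 and 21.6 in Hanevalval mock replicates 3 and 4 and 106.6 in TT8 mock replicate 4, and was at 0 in the other 5 libraries. The germin-like gene SETIT_032400mg had a signal of 52.2 and 41.0 in Hanevalval replicates 3 and 4 and 79.4 in TT8 replicate 4, and was at 0 in 4 of the remaining libraries, with 2.28 in Hanevalval replicate 1. RAM1 (SETIT_027708mg), the GRAS factor that controls arbuscule branching, was detected at 18.7 in Hanevalval mock replicate 3 and at 4.74 in TT8 mock replicate 4 and was at 0 in the other 6. STR was at 31.7 and 42.1 in Hanevalval mock replicates 3 and 4 and at 37.9 in TT8 mock replicate 4. In the remaining mock libraries of these lines STR was at 35.3 to 53.1. STR2 was lower in Hanevalval mock replicates 3 and 4, at 4.66 and 3.24, than in replicates 1 and 2, at 21.7 and 20.9. As a share of the mean of the AMF libraries of its line, Hanevalval mock replicate 3 held 18.7% of the SiPHT1;9 signal, 11.9% of SETIT_032400mg, 16.003% of RAM2, 13.2% of SETIT_019796mg and 21.5% of RAM1. Hanevalval mock replicate 4 held 5.62%, 9.32%, 13.9%, 2.64% and 0% of the same genes. By the same measure, TT8 mock replicate 4 held 2.83% of the SiPHT1;9 signal, 2.60% of SETIT_032400mg, 2.23% of RAM2, 1.99% of SETIT_019796mg and 1.97% of RAM1. The AMF means were lower in Hanevalval than in TT8 for each of these genes. The Hanevalval AMF libraries were far apart, with SiPHT1;9 at 1475, 103.3, 302.5 and 193.2 in replicates 1 to 4. AMF replicate 2 was the lowest for each gene, with SETIT_032400mg at 85.4, RAM2 at 21.8, SETIT_019796mg at 202.6 and RAM1 at 60.6. Hanevalval mock replicate 3 was below AMF replicate 2 for each of them, with SiPHT1;9 at 97.0, SETIT_032400mg at 52.2, RAM2 at 14.9, SETIT_019796mg at 108.2 and RAM1 at 18.7. The 3 mock libraries are called by their labels below, and the counts of called genes are given with and without them. Counts of genes without overlap refer to all 8 libraries. The part of the AM marker transcripts in the differences between the lines was not tested.

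**Figure D2:**
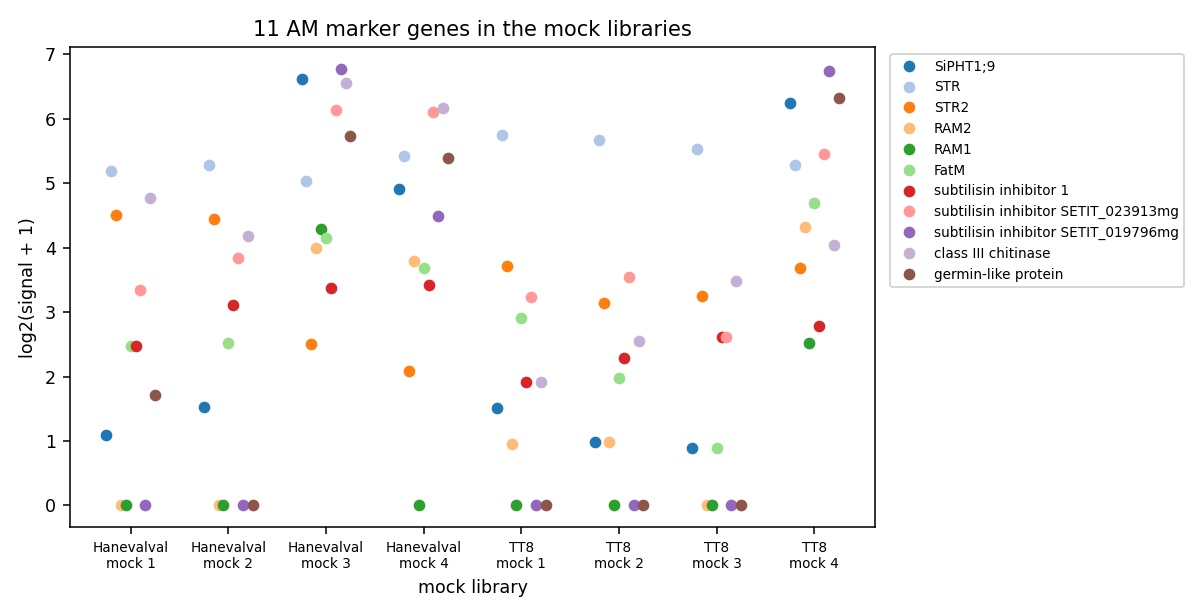
The log2(signal + 1) of 11 AM marker genes (colours) in each of the 8 mock libraries. SiPHT1;9, the germin-like gene and the subtilisin inhibitor gene SETIT_019796mg have a signal of at most 2.28 in Hanevalval mock 1 and 2 and in TT8 mock 1, 2 and 3. They lie above 4 on the log2 axis in the other 3 libraries.

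Few genes separated the mock-treated roots of the lines beyond the spread of their replicates. With limma on log2(signal + 1), a threshold of 0.05 on the Benjamini-Hochberg adjusted p and a difference of at least 2-fold, 99 genes were higher in Hanevalval (0.412% of those tested) and 70 were higher in TT8 (0.291%), or 169 in all (0.703%). The libraries of the lines did not overlap for any of the 169, against 1932 of all genes tested (8.04%). The call was made on the same libraries, so this lack of overlap is not separate evidence. The differences were large: the median was 2.59 on the log2 scale among genes higher in Hanevalval and -2.55 among those higher in TT8, and 39 and 28 genes, respectively, differed at least 8-fold. At the other end, 20971 genes (87.3%) differed less than 2-fold between the line means, but the 95% confidence interval of the difference lay within 2-fold for only 10402 (43.3%). For the remaining genes a difference of 2-fold or more cannot be set aside with these replicates. DESeq2, a count model run on the reads recovered from the signal, called 485 genes higher in Hanevalval (2.02%) and 317 higher in TT8 (1.32%), or 3.34% of the genes tested, and 167 of the 169 were among them. It gave no adjusted p for some genes, which were counted as not called. The median SD of log2 values within a line was 0.48 in Hanevalval mock and 0.35 in TT8 mock libraries, against 0.29 and 0.25 in the AMF libraries of the same lines.

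The number of genes called depended on which Hanevalval libraries stood for the line. With replicates 1 and 2 left out, so that the libraries labelled mock replicates 3 and 4 represented Hanevalval, 1970 genes were higher in Hanevalval (8.2%) and 1959 higher in TT8 (8.15%). With replicates 3 and 4 left out, the counts were 80 (0.333%) and 92 (0.383%), or 0.716% in all. With all 3 libraries that carry AM marker transcripts left out, 198 genes were higher in Hanevalval (0.824%) and 151 in TT8 (0.628%), although only 5 libraries remained. Of the 169 genes called with all libraries, 137 were also called in the same direction without these 3 libraries. Leaving out each of the 8 libraries in turn gave 49 to 112 genes higher in Hanevalval and 29 to 82 higher in TT8. The counts moved by more than 1.5 times without Hanevalval replicate 3 (60 and 45), TT8 replicate 1 (51 and 38), TT8 replicate 2 (54 and 29) or TT8 replicate 3 (49 and 33). In all, 75 genes were called with every library in the fit and with each of them left out, 46 higher in Hanevalval and 29 higher in TT8.

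In the Indian landrace ISE36, some of the called genes lay nearer to Hanevalval and others nearer to TT8. Of the 94 genes higher in Hanevalval that were also listed in ISE36, the mean of the 4 ISE36 mock libraries on the log2 scale was nearer to Hanevalval for 53 and nearer to TT8 for 41. Of the 67 listed genes higher in TT8, ISE36 was nearer to TT8 for 40 and nearer to Hanevalval for 27. Over all 23590 genes listed in the 3 lines, ISE36 was nearer to Hanevalval for 64.1%. Without the 3 libraries that carry AM marker transcripts this share was 55.5%. Of the genes then called and listed in ISE36, ISE36 was nearer to Hanevalval for 119 of the 192 higher in Hanevalval and nearer to TT8 for 83 of the 137 higher in TT8.

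The deposited tables give most of these genes by identifier with no product name, and the 4 described next were picked after their values were seen. SETIT_025883mg had the largest difference among the called genes with a mean of 50 or more in the higher line. Its signal was 607.7, 438.6, 421.6 and 614.8 in Hanevalval mock replicates 1 to 4 and 6.52, 5.85, 1.71 and 8.29 in TT8. Every Hanevalval library was thus far above every TT8 library, with no split between the Hanevalval replicates. The means were 520.6 ± 105 and 5.59 ± 2.79 (SD, n = 4 each), and the log2 difference was 6.42 (SE 0.40, limma adjusted p = 0.00035). In the AMF libraries the signal was again high in Hanevalval, at 452.6 to 714.0, and low in TT8, at 21.8 to 27.5.

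On the TT8 side, SETIT_010686mg had a signal of 653.6, 685.0, 440.1 and 767.7 in TT8 mock replicates 1 to 4 and of 15.96, 9.49, 6.53 and 2.16 in Hanevalval. The log2 difference was -6.28 (SE 0.48, limma adjusted p = 0.00066), and the AMF libraries repeated it with 307.2 to 420.8 in TT8 against at most 8.94 in Hanevalval. The ISE36 mock libraries lay between the lines at 290.6 to 314.7. SETIT_028856mg had a signal of 219.7, 323.0, 397.4 and 1251 in TT8 mock replicates and of 1.14, 2.85, 9.33 and 10.8 in Hanevalval, with a log2 difference of -6.27 (SE 0.69, limma adjusted p = 0.0043). The highest TT8 value was that of replicate 4, the library near to the AMF libraries, in which this gene ranged from 1070 to 2358.

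**Figure D3:**
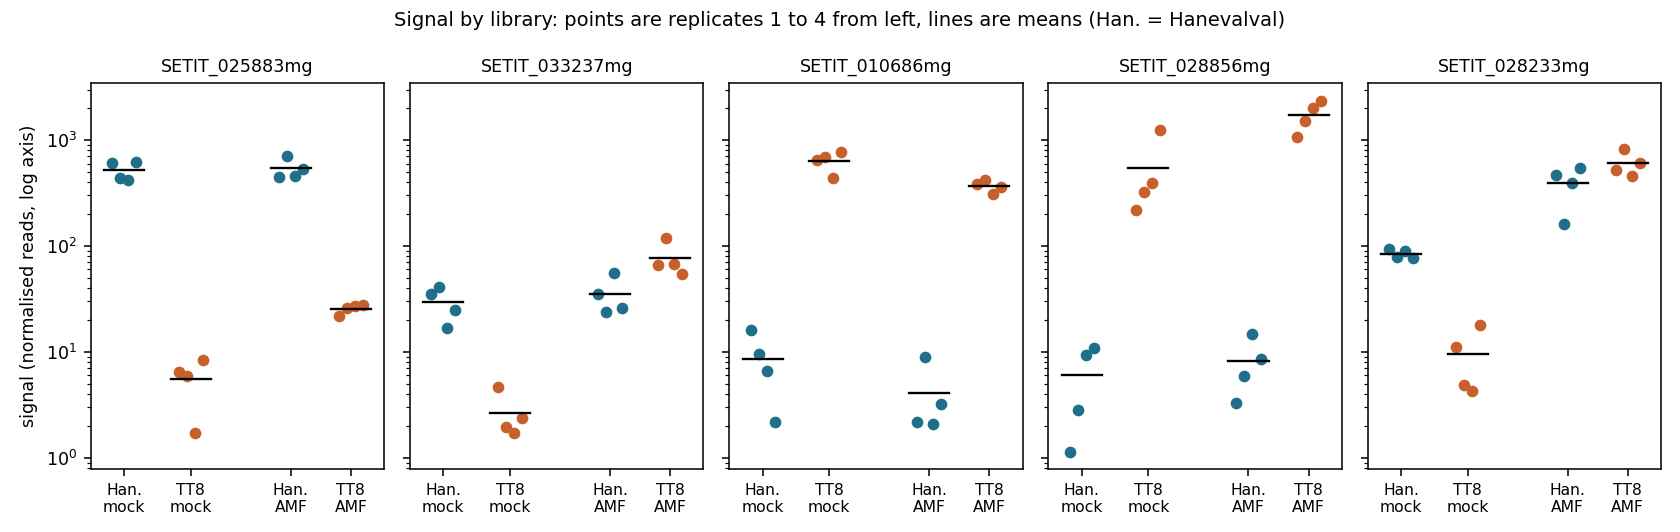
Signal on a log axis of 5 genes in the mock and AMF libraries of Hanevalval (blue) and TT8 (orange), with points for replicates 1 to 4 from left to right and a line at the mean of each group. SETIT_025883mg is high in all Hanevalval libraries, SETIT_010686mg and SETIT_028856mg are high in all TT8 libraries, and SETIT_033237mg and SETIT_028233mg differ in mock but not in the same way in AMF.

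SETIT_028233mg, annotated by the study as a heparan-alpha-glucosaminide N-acetyltransferase and counted among its conserved symbiosis genes, was the only described gene among the 169. Its signal was 93.5, 77.8, 90.5 and 77.7 in Hanevalval mock replicates and 11.2, 4.88, 4.26 and 17.8 in TT8. All 4 Hanevalval libraries were above all 4 TT8 libraries, and within Hanevalval the replicates that split genome-wide gave like values. The log2 difference was 3.22 (SE 0.43, 95% interval 2.25 to 4.20, limma adjusted p = 0.012). Without Hanevalval replicates 3 and 4 it was 3.23, but the adjusted p rose to 0.076, and without those and TT8 replicate 4 it was 3.58 with an adjusted p of 0.019. In ISE36 mock libraries the signal was higher than in either line, at 212.0 to 238.6. In AMF libraries the order of Hanevalval and TT8 turned, with 160.9 to 543.2 in Hanevalval and 462.3 to 826.0 in TT8, but that difference did not pass the test (log2 -0.73, limma adjusted p = 0.12).

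The same line contrast was then made in the 8 AMF libraries, which share no library with the mock comparison. There, 2540 genes were higher in Hanevalval (10.6%) and 3656 were higher in TT8 (15.2%), or 25.8% of the genes tested. Of the 99 genes higher in Hanevalval mock roots, 86 were called in the same direction in AMF roots and 95 had the same sign, and of the 70 higher in TT8, 63 were called and all 70 had the same sign. The median log2 difference of these genes in the AMF libraries was 2.24 and -2.70, against 2.59 and -2.55 in the mock libraries. The genes called in the same direction in both comparisons were 88.2% of the mock calls and 2.40% of the AMF calls. Although no library is shared, 3 of the mock libraries behind these calls were near to the AMF libraries of their line. This agreement is therefore not separate evidence for the mock calls. Without the 3 mock libraries that carry AM marker transcripts, 187 of the 349 mock calls were called in the same direction in AMF roots, which is 53.6% of the mock calls and 3.02% of the AMF calls. With these libraries left out, 28 genes were called in opposite directions, 22 of them higher in Hanevalval in mock. There were 9 such genes with only Hanevalval replicates 3 and 4 left out and 10 among the DESeq2 calls. With all 8 mock libraries in limma, SETIT_033237mg was the only one. Its signal was 35.3, 40.8, 16.8 and 24.8 in Hanevalval mock libraries and 4.66, 1.95, 1.71 and 2.37 in TT8, a log2 difference of 3.04 (SE 0.42, limma adjusted p = 0.014). In AMF libraries it was 23.8 to 55.7 in Hanevalval and 53.8 to 118.9 in TT8, a log2 difference of -1.12 (limma adjusted p = 0.019). The mock call of this gene was lost without Hanevalval replicate 1 or 2 or TT8 replicate 2 or 3, with the highest adjusted p at 0.0655.

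**Figure D4:**
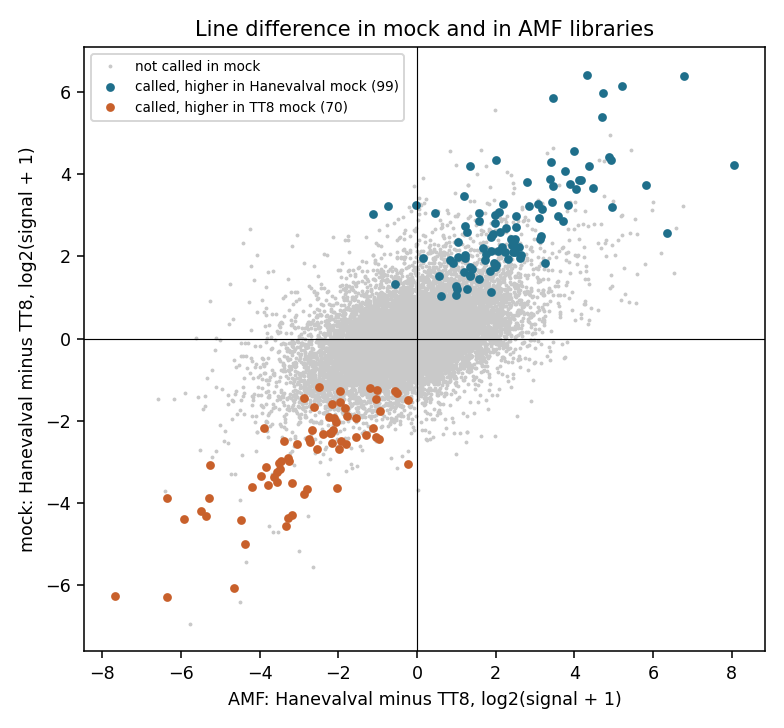
The difference Hanevalval minus TT8 in log2(signal + 1) in AMF libraries (x axis) and mock libraries (y axis) for 24027 genes, with the 99 genes called higher in Hanevalval mock in blue, the 70 called higher in TT8 mock in orange and all others in grey. 95 of the 99 blue points and all 70 orange points have the same sign on both axes.

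A difference between the line contrasts in mock and in AMF roots was tested as an interaction term. It passed an adjusted p of 0.05 for 1563 genes (6.51%), among them 16 of the 99 and 7 of the 70 genes called in mock. The 99 and the 70 were picked by their mock call, which favours a mock difference larger than the AMF one. Their share is therefore not comparable with that of all genes. Without the 3 libraries that carry AM marker transcripts, 7722 genes passed (32.1%), including 1555 of the 1563.

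None of the genes of symbiotic signalling described here passed the test in mock roots. Castor (SETIT_034161mg), a nuclear cation channel, had a signal of 1491, 1238, 1195 and 1125 in Hanevalval and of 1084, 1059, 1054 and 1067 in TT8. The groups did not overlap, but the log2 difference was 0.24 with a 95% interval of -0.09 to 0.56 and an adjusted p of 0.47 (limma). DMI2 (SETIT_029334mg), the receptor-like kinase of the pathway, differed by 0.05 with an interval of -0.44 to 0.53. For both genes the interval lies within 2-fold. DMI3 (SETIT_021787mg), the calcium- and calmodulin-dependent kinase, had a signal of 864.2, 906.6, 731.2 and 686.0 in Hanevalval and of 336.1, 776.7, 800.0 and 1430 in TT8, a difference of 0.10 with an interval of -0.77 to 0.97. The sign of the DMI2 and DMI3 differences turned under some scalings, and the spread of DMI3 lay within TT8, between replicates 1 and 4. CYCLOPS (SETIT_008637mg), the transcriptional activator phosphorylated by DMI3, had the largest difference among these genes. Its signal was 17.1, 6.64, 12.1 and 15.1 in Hanevalval and 0.93, 2.93, 5.12 and 3.55 in TT8, so that every Hanevalval library was above every TT8 library. The log2 difference of 1.78 (SE 0.49) had an adjusted p of 0.21 (limma), and in the AMF libraries it was 1.44 with an adjusted p of 0.0031.

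The genes described here that act in arbuscules had unlike values among the libraries of a line. SiPHT1;9 (SETIT_004288mg), a phosphate transporter of the PHT1 family, had a signal of 1.14, 1.90, 97.0 and 29.1 in Hanevalval mock libraries and of 1.86, 0.98, 0.85 and 74.6 in TT8. RAM2 (SETIT_035307mg), a glycerol-3-phosphate acyltransferase of symbiotic lipid synthesis, was at 0, 0, 14.9 and 12.9 in Hanevalval and at 0.93, 0.98, 0 and 19.0 in TT8. FatM (SETIT_003998mg), an acyl carrier protein thioesterase that makes the fatty acids for export, had 4.56, 4.75, 16.8 and 11.9 in Hanevalval and 6.52, 2.93, 0.85 and 24.9 in TT8. In each of these genes Hanevalval replicates 3 and 4 and TT8 replicate 4 were the 3 highest libraries. RAD1 (SETIT_000959mg), a GRAS transcription factor that interacts with RAM1, had 346.6, 331.3, 233.2 and 249.1 in Hanevalval and 149.0, 216.6, 208.1 and 1285 in TT8. RAD1 was high in TT8 replicate 4 alone and was not raised in Hanevalval replicates 3 and 4. The line differences of these 4 genes were 1.13, 0.39, 0.59 and -0.09 on the log2 scale, with adjusted p values of 0.74, 0.90, 0.74 and 0.95 (limma). Leaving out 1 library moved the difference between 0.11 and 2.41 for SiPHT1;9, between -0.30 and 1.30 for RAM2, between 0.016 and 1.28 for FatM and between -0.44 and 0.60 for RAD1.

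The half-ABC transporters STR (SETIT_015555mg) and STR2 (SETIT_003786mg), whose proteins act together in the membrane around the arbuscule, gave other patterns. STR had a signal of 35.3, 38.0, 31.7 and 42.1 in Hanevalval and of 53.1, 49.8, 45.2 and 37.9 in TT8, with a log2 difference of -0.33 (95% interval -0.85 to 0.20). It was not raised in the 3 libraries. STR2 was lowest in Hanevalval replicates 3 and 4, at 4.66 and 3.24, against 21.7 and 20.9 in replicates 1 and 2 and 7.81 to 12.1 in TT8. VAPYRIN (SETIT_035002mg), needed for fungal entry into cells, differed by -0.03 (95% interval -0.73 to 0.67), and the exocyst subunit gene Exo70I (SETIT_015320mg) by 0.62. The CCAAT-binding factor CBF1 (SETIT_023636mg) differed by 0.41, and the GRAS factor TF72 (SETIT_021890mg) by 0.50. None of these passed the test, with adjusted p values of 0.53 to 0.97 (limma) for the 6 genes.

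Over the whole list of 54 conserved symbiosis genes, 44 could be tested, 7 were below the mean minimum and 3 were not in both tables. In mock roots 1 was called higher in Hanevalval, SETIT_028233mg, and 0 were called higher in TT8, and edgeR gave the same counts. DESeq2 also called an AP2 domain transcription factor gene (SETIT_001909mg), the plastocyanin-like gene SETIT_020176mg and the class III chitinase gene SETIT_002402mg higher in Hanevalval. At an unadjusted p under 0.05 with a 2-fold difference there were 4 and 1, against 761 (3.17%) and 847 (3.53%) of all genes tested. The median log2 difference was 0.07, against -6.55e-05 over all genes tested. In the AMF libraries the same list had 4 genes called higher in Hanevalval and 24 called higher in TT8, with a median of -1.44, where 10.6% and 15.2% of all genes tested were called. For 10 of the 44 the interaction term passed, against 6.51% of all genes tested, and for 27 without the 3 libraries that carry AM marker transcripts, against 32.1%. Without Hanevalval replicates 1 and 2, 6 were called higher in Hanevalval and 5 higher in TT8 (8.2% and 8.15% of all genes tested), with a median of 0.32. Without replicates 3 and 4, 0 were called and the median was 0.04, and without those and TT8 replicate 4, SETIT_028233mg was called and the median was 0.22.

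Nutrient transporters and defence-related genes of this list gave single cases. The ammonium transporter gene AMT3:1 (SETIT_004697mg) had a signal of 229.2, 83.5, 44.8 and 37.8 in Hanevalval and of 285.9, 333.7, 154.4 and 425.3 in TT8. Only Hanevalval replicate 1 reached into the TT8 range, and the log2 difference of -1.88 (SE 0.57) had an adjusted p of 0.26 (limma). The ammonium transporter gene AMT2:1 (SETIT_024947mg) had 432.1 and 443.3 in Hanevalval replicates 1 and 2, 1291 and 1404 in replicates 3 and 4, and 552.6 to 684.8 in TT8. The class III chitinase gene SETIT_002402mg had 26.2, 17.1, 93.3 and 71.2 in Hanevalval and 2.79, 4.88, 10.2 and 15.4 in TT8. Its groups did not overlap, with a log2 difference of 2.42 (SE 0.66) and an adjusted p of 0.21 (limma). The plastocyanin-like gene SETIT_020176mg had 168.7 and 115.8 in Hanevalval replicates 1 and 2, 2833 and 2952 in replicates 3 and 4, 178.6 to 305.7 in TT8 mock libraries and 3984 to 5152 in Hanevalval AMF libraries.

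The 3 metabolic lists, of glutamine and arginine metabolism, of aromatic amino acid synthesis with phenylalanine ammonia-lyase, and of cell wall polysaccharides, were chosen by the study for their response to AMF in these libraries and are not independent evidence of a direction. None of their members was called in mock roots, in either direction, by limma with all 8 libraries. Many members had unlike values in Hanevalval replicates 1 and 2 and in replicates 3 and 4. With edgeR on the recovered reads 0 members were called either. DESeq2 called the glutamine synthetase gene SETIT_036352mg and the phosphoribosylanthranilate isomerase gene SETIT_018043mg, of tryptophan synthesis, higher in Hanevalval, and the PAL gene SETIT_016478mg, a glycosyl transferase gene (SETIT_009553mg) and a pectate lyase superfamily gene (SETIT_001461mg) higher in TT8. The genes named here by their DESeq2 call, in these lists and among the conserved symbiosis genes, were chosen after their values were seen.

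Glutamine and arginine metabolism covers the assimilation of ammonium and the synthesis of the amino acid in which AM fungi carry nitrogen. Of its 20 tested genes, 0 were called, 3 had an unadjusted p under 0.05 with a level at least 2-fold higher in Hanevalval and 0 with one higher in TT8, against 3.17% and 3.53% of all genes tested. The difference was positive for 19 genes, with a median of 0.99 against -6.55e-05 over all genes tested. N-acetylglutamate synthase (SETIT_017738mg), which makes the first intermediate of ornithine synthesis, had a signal of 92.4 and 136.7 in Hanevalval replicates 1 and 2 and of 2373 and 2660 in replicates 3 and 4. In TT8 it had 34.5, 54.6, 79.3 and 426.5, highest in replicate 4, and in AMF libraries 3467 to 5932 in Hanevalval and 679.5 to 1768 in TT8. The glutamine synthetase gene SETIT_036352mg, for the enzyme that fixes ammonium into glutamine, had 621.3, 463.2, 6924 and 8752 in Hanevalval and 438.6 to 555.6 in TT8. Here TT8 replicate 4 was no higher than the others. The log2 difference was 2.56 (95% interval -0.30 to 5.41) for SETIT_017738mg and 2.002 (-0.12 to 4.12) for SETIT_036352mg. Without Hanevalval replicates 1 and 2, 12 of the 20 genes were called higher in Hanevalval, where 8.2% of all genes tested were called in that direction and 16.4% in either, and the list median was 1.88. Without replicates 3 and 4, 0 were called and the median was 0.04, and without those and TT8 replicate 4, 0 were called and the median was 0.24.

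The aromatic list holds the shikimate pathway, the branches to tryptophan and phenylalanine, and phenylalanine ammonia-lyase (PAL), which opens the phenylpropanoid pathway to lignin and phenolics. Of its 21 tested genes, 0 were called and 2 had an unadjusted p under 0.05 with at least a 2-fold difference, both higher in TT8, as did 3.53% of all genes tested. The median was 0.63, with 16 positive and 5 negative differences. The PAL genes gave unlike patterns. SETIT_016475mg had a signal of 923.5 and 1336 in Hanevalval replicates 1 and 2, 21244 and 16468 in replicates 3 and 4, and 849.4 to 3489 in TT8. SETIT_009345mg showed the same pattern, with 435.5 and 535.4 in Hanevalval replicates 1 and 2 against 6324 and 4441 in replicates 3 and 4. SETIT_016478mg, by contrast, had 969.1, 717.7, 981.2 and 500.45 in Hanevalval and 1521, 2512, 2047 and 1180 in TT8, with no overlap of the groups and no split in Hanevalval. Its log2 difference of -1.19 (SE 0.30) had an adjusted p of 0.17 (limma). Phosphoribosylanthranilate isomerase (SETIT_018043mg), a step of tryptophan synthesis, had 81.0 and 58.9 in Hanevalval replicates 1 and 2, 816.1 and 677.3 in replicates 3 and 4, and at most 92.4 in TT8. Without Hanevalval replicates 1 and 2, 11 genes of the list were called higher in Hanevalval and 1 higher in TT8, against 8.2% and 8.15% of all genes tested, with a median of 1.15. Without replicates 3 and 4 there were 0 calls and the median was -0.09, and it was 0.0022 when TT8 replicate 4 was left out as well.

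The cell wall list holds enzymes that build and remodel xyloglucan, xylan, mannan, pectin and callose. Of its 51 tested genes, 0 were called and 39 had a negative difference, with a median of -0.48. At an unadjusted p under 0.05 with a 2-fold difference, 0 were higher in Hanevalval and 7 higher in TT8, against 3.17% and 3.53% of all genes tested. Of the 5 genes without overlap, where 8.04% of all genes tested had none, a pectate lyase superfamily gene (SETIT_001461mg) had a signal of 50.2, 46.5, 13.1 and 30.2 in Hanevalval and of 79.1, 85.9, 91.3 and 84.1 in TT8. The TT8 libraries were tight and the Hanevalval ones all lower, with a log2 difference of -1.42 (SE 0.40) and an adjusted p of 0.23 (limma). A glucomannan 4-beta-mannosyltransferase gene (SETIT_034919mg), for an enzyme of mannan synthesis, had 1028 and 1430 in Hanevalval replicates 1 and 2, 112.9 and 152.1 in replicates 3 and 4, and 812.8 to 1285 in TT8. A 1,4-beta-D-xylan synthase gene (SETIT_005721mg) had 40240 and 34611 in Hanevalval replicates 1 and 2, 6807 and 11266 in replicates 3 and 4, and 11701 to 35751 in TT8. Without Hanevalval replicates 1 and 2, 13 genes were called higher in TT8 and 0 higher in Hanevalval, against 8.15% and 8.2% of all genes tested, with a median of -0.80. Without replicates 3 and 4, 0 were called and the median was 0.05, and without those and TT8 replicate 4, 0 were called and the median was 0.08. In the AMF libraries 40 of the 51 were called higher in TT8, against 15.2% of all genes tested.

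**Figure D5:**
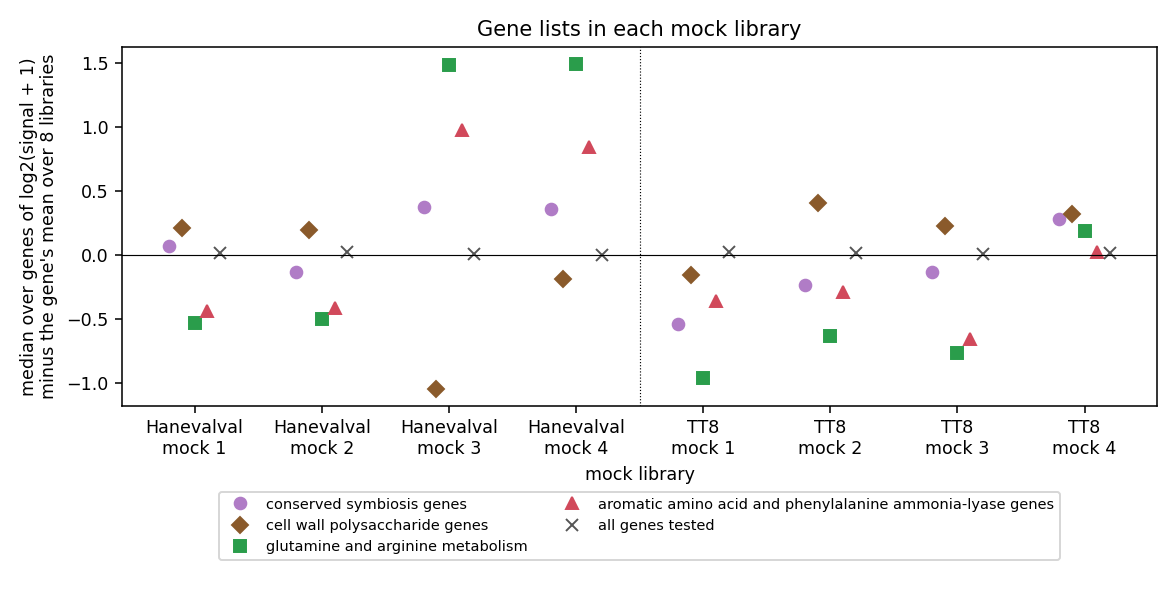
For each gene list and for all genes tested, the median over genes of log2(signal + 1) in a mock library minus the mean of the gene over the 8 mock libraries. Glutamine and arginine metabolism lies at 1.483 and 1.497 in Hanevalval mock 3 and 4, at -0.53 and -0.50 in Hanevalval mock 1 and 2, between -0.96 and -0.63 in TT8 mock 1 to 3 and at 0.19 in TT8 mock 4, while the median over all genes stays between 0.00 and 0.03.

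Seen by library, the lists placed TT8 mock replicate 4 differently. Over the conserved symbiosis genes it stood at 0.28, above the -0.54 to -0.13 of the other TT8 libraries, while Hanevalval replicates 3 and 4 stood at 0.38 and 0.36 and replicates 1 and 2 at 0.07 and -0.13. The median deviation of the glutamine and arginine genes was 0.19 in TT8 replicate 4, above the -0.96 to -0.63 of the other TT8 libraries and below the 1.483 and 1.497 of Hanevalval replicates 3 and 4. The cell wall genes were lowest in Hanevalval replicate 3, at -1.05, followed by -0.19 in replicate 4 and -0.15 in TT8 replicate 1, while TT8 replicate 4 stood at 0.32. These libraries were roots, and a change in the share of a cell type cannot be told apart from a change in RNA per cell.

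Of the genes tested, 102 were noncoding RNA genes. In mock roots limma and edgeR called 0 and DESeq2 called 3, all higher in TT8. At an unadjusted p under 0.05 with a 2-fold difference there were 1 higher in Hanevalval and 10 higher in TT8 (limma), against 3.17% and 3.53% of all genes tested. For 10 of the 102 (9.80%) the libraries of the lines did not overlap, near the 8.04% of all genes tested, and 10 (9.80%) were called in the AMF libraries, where 25.8% of all genes were. Without the 3 libraries that carry AM marker transcripts 1 was called, higher in TT8. Their median log2 difference in mock roots was 0.04 with all 8 libraries and -0.15 without the 3, with a range of -3.04 to 1.69 over all 8. Outside the comparison were 881 genes listed for Hanevalval and not for TT8 and 1031 listed for TT8 and not for Hanevalval, for which the mock levels of the lines were not compared here, and 260 genes in both tables with a mean under 5.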

How the data were processed

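RNA-seq values of the 8 mock-treated and 8 AMF-treated libraries of Hanevalval and TT8 were used, with the 4 mock libraries of ISE36 for reference. The authors trimmed reads with Trimmomatic 0.38, aligned them to Setaria italica genome v2.0 with HISAT2 2.1.0 and counted them per gene with featureCounts 2.0.0. The deposited values are a normalised signal, counts divided by a size factor per library (DESeq2 1.26.0), in 1 table per line. All values of the 8 mock libraries examined (100% within 0.01 of a whole number) were whole multiples of 1 step per library, which gave back the reads. The deposited size factors matched factors computed jointly over the 8 mock libraries within ratios of 0.992 to 1.01, so the tables of both lines are on the same scale. Columns without a sample numbered 0.

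Genes in both tables with a mean of at least 5 were tested on log2(signal + 1) with limma 3.58.1 (R 4.3.3), with a variance trend, two-sided, and Benjamini-Hochberg adjustment over all genes tested. The fold change is on the log2(signal + 1) scale, which understates the change of low genes. Calls needed an adjusted p no higher than 0.05 and a log2 difference of 1 or more in either direction. Only the groups compared entered a fit, and the AMF contrast and the interaction were fitted likewise. Alternatives were other pseudocounts, rescaling to a common total (CPM), quantile normalization, other filters, all 24 libraries in the fit, a replicate block, DESeq2 1.42.0 and edgeR 4.0.16 on the recovered reads, and left-out libraries. Leaving out Hanevalval replicates 3 and 4 with TT8 replicate 4 was chosen after seeing the data. The fit was tested on simulated data. These reads were drawn independently for each gene and library, with no split between replicates, so they do not show how the fit performs with the split seen in Hanevalval. Summaries used pandas 2.3.3 and numpy 2.4.6 (Python 3.11.15), and plots matplotlib 3.10.9.

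The members and lists were chosen with earlier results of these data known. Named were the 15 symbols of the table of conserved symbiosis genes, the called genes of each list with the largest difference (at most 2 per direction) and described genes among those with the largest differences. Other genes of the lists, and the genes without a description, were chosen after their values were seen. Product descriptions were read from the study's tables. The reference table given here (assembly Setaria_italica_v2.0) does not pair the identifiers of the files with names, so lists by product keyword, markers of green tissue and of root, coordinates and sequences were not used here.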

Additional observations from a re-analysis of the deposited data

Results flagged for a closer look

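For 3 of 38 combinations of a named gene and a mock group, the highest of the 4 libraries stood far from the other 3. Chance flags about 1 in 20 independent sets, but these combinations share their libraries and are not independent. All 3 flags fell on TT8 mock replicate 4, with a signal of 74.6 for SiPHT1;9 (SETIT_004288mg), 19.0 for RAM2 (SETIT_035307mg) and 1285 for RAD1 (SETIT_000959mg). The rule finds a library that stands apart alone, so a raised pair such as Hanevalval mock replicates 3 and 4 could hardly be flagged. RAM1 (SETIT_027708mg) was below the mean minimum and not examined, although Hanevalval mock replicate 3 had 18.7 and the other Hanevalval mock libraries 0.

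For 8 named genes the difference between Hanevalval and TT8 in mock roots was not the same as in AMF roots, by the interaction term of limma. The mock difference minus the AMF difference was 1.60 for DMI3 (SETIT_021787mg, adjusted p = 0.045), 2.38 for STR (SETIT_015555mg, 0.0067), 3.15 for RAD1 (0.028), 4.28 for FatM (SETIT_003998mg, 0.031) and 2.73 for CBF1 (SETIT_023636mg, 0.012), all on the log2 scale. In these 5 genes the AMF libraries were lower in Hanevalval than in TT8, by log2 differences of -3.69 to -1.50, and the mock difference did not pass the test. The mock difference minus the AMF difference was 3.95 for SETIT_028233mg (0.0050), 4.17 for SETIT_033237mg (0.0018) and 2.09 for SETIT_025883mg (0.020), which were called higher in Hanevalval mock roots. SETIT_033237mg was picked because its mock and AMF calls had opposite directions, so its interaction term is no separate result. SETIT_028233mg and SETIT_025883mg were picked by their mock call, which favours a mock difference larger than the AMF one. Without Hanevalval mock replicates 3 and 4 and TT8 mock replicate 4 all 8 still passed, with adjusted p values of 0.00014 to 0.0048. SiPHT1;9, RAM2 and STR2 (SETIT_003786mg) passed only then, with differences of 3.24, 2.83 and 4.28 and adjusted p values of 0.023, 0.022 and 0.0034.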

How the results depend on the processing

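Depth limits RAM1, RAM2 and CYCLOPS, whose signal in several mock libraries stands for a few reads or 0. Against 99 genes higher in Hanevalval and 70 higher in TT8, DESeq2 on the recovered reads called 485 and 317, with 167 of the 169 among them, and edgeR called 92 and 66. All 24 libraries in the fit gave 531 and 373. Leaving out Hanevalval replicates 1 and 2 gave 1970 and 1959, and leaving out replicates 3 and 4 with TT8 replicate 4 gave 198 and 151 and raised the interaction count from 1563 to 7722. Pseudocounts, CPM, quantile normalization and filters gave 67 to 102 and 54 to 80. CPM moved the median of all genes by -0.11 on the log2 scale. Leaving out 1 library gave 49 to 112 and 29 to 82 in mock, and 2372 to 2612 and 3368 to 3796 in AMF. The cause of these changes was not tested. DESeq2 was not run for the AMF contrast. In mock it gave no adjusted p for some genes, RAD1, CYCLOPS and RAM2 among them, and these were counted as not called.

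Replicate numbers are shared by the groups, and the deviations of same-numbered libraries correlated at 0.17, 0.18, -0.07 and 0.38. The highest correlation was with TT8 replicate 2 for Hanevalval replicates 1 and 2, and with TT8 replicate 4 for Hanevalval replicates 3 and 4. These values do not settle whether the numbers pair the libraries, which were not paired in the main fit. With the replicate number as a block, 81 and 43 genes were called in mock.

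Some small differences changed sign. DMI2 (SETIT_029334mg) went from 0.05 to -0.059 with CPM, -0.031 with quantile normalization and -0.081 without Hanevalval replicates 1 and 2. DMI3 (SETIT_021787mg) went from 0.10 to -0.0086 with CPM, -0.066 with DESeq2, -0.078 with edgeR and -0.062 without Hanevalval replicates 1 and 2. STR2 (SETIT_003786mg) went from -0.06 to 0.056 with a pseudocount of 8, 0.32 with DESeq2, 0.31 with edgeR, 1.03 without Hanevalval replicates 3 and 4 and 1.11 without TT8 replicate 4 as well. Without Hanevalval replicates 3 and 4, SiPHT1;9 (SETIT_004288mg) went to -1.09, RAM2 (SETIT_035307mg) to -1.56, RAD1 (SETIT_000959mg) to 0.15, FatM (SETIT_003998mg) to -0.12 and Exo70I (SETIT_015320mg) to -0.15, and without TT8 replicate 4 as well RAM2 was at -0.64 and RAD1 at 0.84. VAPYRIN (SETIT_035002mg) went to 0.23 without Hanevalval replicates 1 and 2. Leaving out 1 library, the range was -0.10 to 0.20 for DMI2, -0.28 to 0.42 for DMI3, -0.43 to 0.37 for STR2, -0.23 to 0.20 for VAPYRIN, -0.30 to 1.30 for RAM2, -0.44 to 0.60 for RAD1 and -0.050 to 0.92 for TF72 (SETIT_021890mg). CYCLOPS (SETIT_008637mg) passed the test with all 24 libraries in the fit (adjusted p = 0.019), and SETIT_033237mg lost it with the replicate block (adjusted p = 0.052).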
